A study of Mus musculus with 26 samples.

Results

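Ubb and Rps27a are 2 mouse genes that code for ubiquitin, and they were taken by symbol from the 20430 genes of the RNA tables and the 19941 genes of the ribosome footprint tables. Ubb codes for a polyubiquitin, a chain of ubiquitin units in a head-to-tail row that is cut into free ubiquitin after translation. Rps27a codes for 1 ubiquitin unit fused to a protein of the small ribosomal subunit, and cutting of the fusion frees both. Ubiquitin is attached to other proteins by E1, E2 and E3 enzymes in turn, marks many of them for the proteasome, and is recovered by deubiquitinases. Polyubiquitin genes are known as stress genes in many cells, whereas ribosomal fusions are known as a supply of ubiquitin in growing cells. Both genes passed the filter on low counts in the RNA, the footprint and the combined fits.

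The cells were NIH3T3, an established line of mouse embryonic fibroblasts, in 26 libraries of 2 replicates a group. PolyA-selected RNA was sequenced from a heat experiment with its own control, 44 °C for 2 h and 42 °C for 8 h (6 libraries), and from an experiment with 1 control shared by H2O2 (an oxidant) and KCl (an osmotic stress), each for 2 h and 7 h (10 libraries). Ribosome footprints, the mRNA fragments covered by ribosomes, were sequenced for the 5 groups of the H2O2 and KCl experiment (10 libraries). No genotype or concentration is given in the sources used here, nor what tells the 2 replicates of a group apart, so p-values measure the spread between these libraries, which may be technical. Because RNA was taken in bulk, fewer cells of a type and less RNA per cell cannot be told apart.

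RNA libraries held 24441877 to 45244430 counts and footprint libraries 1460751 to 5168537. Both footprint extremes belonged to 2 h with H2O2, replicate 1 being the lowest and replicate 2 the highest. That group also had the lowest correlation between footprint replicates, 0.957. Replicates correlated across genes at r of 0.994 to 0.996 for RNA and 0.957 to 0.978 for footprints, and every pair differed by more than counting noise. Of 10 fibroblast markers 9 were at a mean of at least 1 TPM (transcripts per 1000000) in RNA, with Lum below, and their summed level was 4150 to 11300 TPM. Macrophage markers summed to 7.96 to 44.8 TPM, epithelial markers to 8.78 to 19.6 and endothelial markers to 0.44 to 3.66, and their part in the results was not tested.

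In the RefSeq annotation of GRCm38.p6, the assembly of the authors' mm10 build, Ubb lies at chr11:62551171-62553213 and Rps27a at chr11:29545842-29548040. The promoter of Ubb is shown because stress elements are known from promoters of this kind of gene. The 250 bases before the first annotated start of Ubb, chr11:62550921-62551170 on the plus strand, are given 5′ to 3′ with a CCAAT box in capitals.
Ubb start 1: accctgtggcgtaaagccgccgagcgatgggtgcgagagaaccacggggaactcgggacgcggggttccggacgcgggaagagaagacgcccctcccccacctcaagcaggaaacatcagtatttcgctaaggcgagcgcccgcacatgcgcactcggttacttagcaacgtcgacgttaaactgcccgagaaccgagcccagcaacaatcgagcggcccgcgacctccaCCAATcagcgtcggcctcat
The CCAAT box began 20 bases before the start (position -20), and CCAAT was found on either strand in 33.8% of 32851 promoter windows of that length. This window held no match on either strand to GAANNTTC or TTCNNGAA, inverted pairs of heat shock factor units found in 6.69% and 7.17% of promoter windows. It also held no TATAAA (12.4% of windows) and no TGACNNNGC, the core of the antioxidant element (10.2%). The window before the second annotated start, chr11:62551481-62551730, held 1 TGACNNNGC at position -29 and none of the other motifs. The motifs were matched by letters alone, and the data did not measure binding. No promoter of Rps27a is shown.

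Both genes were among the abundant mRNAs. Ubb RNA ranged from 800 to 2023 TPM, a scale that divides by transcript length, and ranked between place 59 and place 184 among all genes of a library. Rps27a RNA ranged from 991 to 1934 TPM and ranked between place 65 and place 146. Behind these levels stood 11256 to 42669 reads of Ubb and 6949 to 19680 reads of Rps27a in a library.

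The mean Ubb RNA level was 2022 TPM at 42 °C for 8 h, 1725 after 2 h with H2O2, 1706 in the heat control, 1563 at 44 °C for 2 h, 1522 in the H2O2 and KCl control, 1521 after 7 h with H2O2, 947 after 7 h with KCl and 924 after 2 h with KCl. In that order the libraries of 4 neighbouring pairs overlapped: the 2 h H2O2 group and the heat control, the 44 °C group and the H2O2 and KCl control, that control and the 7 h H2O2 group, and the KCl groups. The mean Rps27a RNA level was 1932 TPM after 7 h with H2O2, 1525 at 42 °C, 1404 after 2 h with H2O2, 1329 in the H2O2 and KCl control, 1240 after 2 h with KCl, 1239 in the heat control, 1234 at 44 °C and 1058 after 7 h with KCl. Only the 2 h KCl group, the heat control and the 44 °C group overlapped between neighbours. KCl libraries were thus the lowest for Ubb at both times, and for Rps27a the extremes were 7 h with H2O2 and 7 h with KCl. The controls of the 2 experiments did not overlap either. For Ubb they were 1683 and 1730 TPM in the heat experiment and 1499 and 1545 in the other. An order across both experiments therefore mixes experiment with stress, and tests were run within each.

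**Figure D1:**
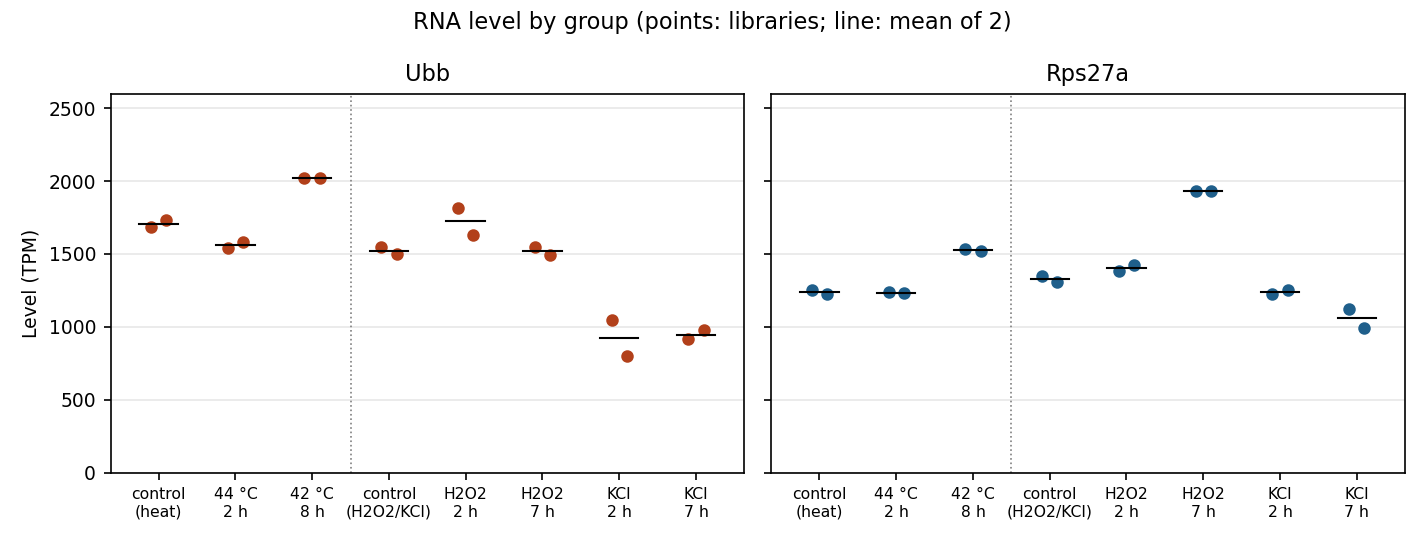
RNA level (TPM) of Ubb and Rps27a in each of 16 libraries, by group, with the group mean as a line and a dotted line between the 2 experiments. Ubb lies between 800 and 1048 TPM in the 4 KCl libraries and between 1495 and 2023 TPM elsewhere, and Rps27a stands at 1931 and 1934 TPM after 7 h with H2O2.

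The first comparison asked how the 2 genes responded to short severe and long mild heat. Temperature and duration changed together, so they cannot be told apart. Below, 44 °C and 42 °C stand for the whole treatments. Ubb RNA was 1683 and 1730 TPM in the heat controls, 1541 and 1584 at 44 °C and 2023 and 2021 at 42 °C, so it was below the controls after the short heat and above them after the long heat, with no overlap. Rps27a RNA was 1255 and 1223 TPM in the controls, 1239 and 1230 at 44 °C and 1531 and 1518 at 42 °C. Its libraries overlapped at 44 °C and were all higher at 42 °C. With 2 libraries a group, such separation is a description, here and below. The share of all genes whose libraries separate was not counted.

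Ubb RNA fell by 0.20 on the log2 scale at 44 °C (SE 0.041, adjusted p = 5.42e-04 by edgeR's quasi-likelihood test), in a comparison that called 71.0% of 12747 genes in either direction. At 42 °C it rose by 0.43 (SE 0.041, adjusted p = 6.01e-07), where 63.6% of genes were called. Rps27a RNA differed by -0.068 at 44 °C (SE 0.039, adjusted p = 0.133) and rose by 0.49 at 42 °C (SE 0.039, adjusted p = 1.04e-07). Set directly against each other, 42 °C was above 44 °C by 0.63 for Ubb (SE 0.041, adjusted p = 5.18e-09) and by 0.56 for Rps27a (SE 0.039, adjusted p = 1.08e-08), and 75.1% of genes were called. On log2(TPM + 1), where the median of all genes at 42 °C was -0.16 and not -0.014, limma gave smaller rises at 42 °C of 0.25 for Ubb (adjusted p = 5.59e-04) and 0.30 for Rps27a (adjusted p = 9.42e-05). On that scale Ubb fell by 0.13 at 44 °C (adjusted p = 0.0219), and the difference of 42 °C from 44 °C was 0.37 for Ubb and 0.30 for Rps27a.

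A list of 18 chaperone genes known as targets of heat shock factor 1 (HSF1) rose in full at both temperatures, with a median of 1.07 at 44 °C and 1.33 at 42 °C on the log2 scale. Hspb1, a small heat shock protein, rose by 5.21 at 44 °C (SE 0.076), and Hspa1a, an inducible HSP70, rose by 7.22 at 42 °C (SE 0.16). Ubb lay below all 18 of them at 44 °C and below 17 of them at 42 °C. Of 77 other ribosomal protein genes, 4 were higher and 41 lower at 44 °C (median -0.13), and 76 were higher and 0 lower at 42 °C (median 0.35). Over all genes 35.4% were called higher and 35.7% lower at 44 °C, and 31.7% and 31.9% at 42 °C. At 42 °C the rise of Rps27a was exceeded by 3 of the 31 genes of the small subunit, Rps12 being highest at 0.55 (SE 0.056). On log2(TPM + 1) limma called 54 of the ribosomal protein genes higher and 0 lower at 42 °C, beside 15.3% of all genes higher and 49.3% lower with a median of -0.16.

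Of 117 tested genes of the ubiquitin system (E1 and E2 enzymes, quality-control E3 ligases, deubiquitinases, receptors and ubiquitin-like modifiers), 44 were higher and 38 lower at 44 °C with a median of 0.053, and over all genes 35.4% were called higher and 35.7% lower. At 42 °C 66 were higher and 17 lower with a median of 0.14, with 31.7% and 31.9% of all genes called in those directions. On log2(TPM + 1) limma called 26 of them higher and 39 lower, beside 15.3% and 49.3% of all genes with a median of -0.16. Among E1 enzymes at 44 °C, Uba6 rose by 0.58 (SE 0.052) and Uba1, the main activating enzyme of ubiquitin, fell by 0.21 (SE 0.037). The conjugating enzyme Ube2e2 fell by 1.48 at 44 °C (SE 0.075). Zfand2a, a stress-induced ubiquitin-binding protein, rose by 0.97 at 44 °C (SE 0.049) and 1.20 at 42 °C (SE 0.049). At 42 °C the deubiquitinase Otub2 fell by 0.95 (SE 0.086) and the ligase Nedd4l rose by 0.64 (SE 0.054). The change of Ubb at 42 °C was exceeded by 8 of the 117 genes.

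The second comparison set H2O2 and KCl against their shared control, so the 4 contrasts are not independent. Ubb RNA was 1545 and 1499 TPM in the controls, 1818 and 1633 after 2 h with H2O2 and 1547 and 1495 after 7 h with H2O2. It was 1048 and 800 TPM after 2 h with KCl and 914 and 980 after 7 h with KCl. The KCl libraries all lay below the controls, the 2 h H2O2 libraries above them, and the 7 h H2O2 libraries overlapped them. Rps27a RNA was 1351 and 1307 TPM in the controls, 1383 and 1426 after 2 h and 1931 and 1934 after 7 h with H2O2. It was 1228 and 1252 TPM after 2 h and 1126 and 991 after 7 h with KCl. The highest Rps27a libraries were those of 7 h with H2O2.

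In KCl, Ubb RNA fell by 0.62 after 2 h (SE 0.099, adjusted p = 1.18e-04) and by 0.59 after 7 h (SE 0.099, adjusted p = 1.04e-04, edgeR), or to 0.652 and 0.665 of the control level. These comparisons called 54.2% and 68.8% of 13256 genes. Rps27a RNA differed by 0.010 after 2 h with KCl (SE 0.068, adjusted p = 0.913) and fell by 0.23 after 7 h (SE 0.068, adjusted p = 0.00824). The fall of Rps27a after 7 h missed the threshold without replicate 2 of that group (-0.13, adjusted p = 0.134) and without control replicate 1 (-0.20, adjusted p = 0.0578). Between 2 h and 7 h with KCl Rps27a fell by 0.24 (adjusted p = 0.00651, with 68.8% of genes called), and by 0.14 (adjusted p = 0.11) without replicate 2 of 7 h. The same difference for Ubb was 0.028 (SE 0.099, adjusted p = 0.822) and became 0.24 (adjusted p = 0.0112) without replicate 1 of 2 h with KCl.

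In H2O2, Rps27a RNA rose by 0.62 after 7 h (SE 0.068, adjusted p = 1.47e-06, edgeR), a 1.54-fold level, where 70.5% of genes were called. After 2 h it differed by 0.079 (SE 0.068, adjusted p = 0.349), and the rise from 2 h to 7 h was 0.54 (SE 0.068, adjusted p = 5.81e-06, 73.4% called). Ubb RNA differed by 0.19 after 2 h (SE 0.098, adjusted p = 0.126), where 53.9% of genes were called, and by 0.11 after 7 h (SE 0.098, adjusted p = 0.335). The 2 h difference of Ubb passed when only these 2 groups were fitted (adjusted p = 0.0267), and it was 0.047 without replicate 1 of 2 h with H2O2 (adjusted p = 0.778). Between the stresses, H2O2 was above KCl for Ubb by 0.80 after 2 h (SE 0.099, adjusted p = 1.28e-05, 51.3% called) and by 0.70 after 7 h (SE 0.099, adjusted p = 1.49e-05, 78.4% called). For Rps27a that difference was 0.068 after 2 h (adjusted p = 0.429, and 0.18 with adjusted p = 0.0465 by limma on log2(TPM + 1)) and 0.85 after 7 h (SE 0.069, adjusted p = 3.69e-08).

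The ribosomal protein genes other than Rps27a held 76 higher and 0 lower after 7 h with H2O2 (median 0.48), against 1 higher and 8 lower after 2 h. The median after 7 h over all genes was 0.075, with 39.4% called higher and 31.1% lower, against 27.3% and 26.5% after 2 h. Rps27l, a paralog of Rps27, rose most, by 1.17 (SE 0.081), and 8 of 31 small-subunit genes exceeded Rps27a. In KCl 6 were higher and 0 lower after 2 h, beside 27.2% and 27.0% of all genes. After 7 h 2 were higher and 17 lower with a median of -0.069, beside 37.2% and 31.6% of all genes. On log2(TPM + 1) limma called 0 higher and 18 lower after 2 h with KCl, beside 19.4% of all genes higher and 34.2% lower with a median of -0.068. After 7 h it called 0 higher and 37 lower, beside 30.4% and 36.3% of all genes with a median of -0.028. Rps27a after 7 h with KCl lay below 27 of the 31 small-subunit genes. The HSF1 chaperones held 13 higher and 0 lower after 2 h with KCl and 14 higher and 3 lower after 7 h, and Ubb lay below all 18 at both times. Hspa1b, another inducible HSP70, rose by 2.76 after 2 h with KCl (SE 0.12), and Hspa4l, of the HSP110 family, rose by 3.16 after 7 h (SE 0.09). In H2O2 3 of the chaperones were higher and 4 lower after 2 h, and 7 higher and 7 lower after 7 h.

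Of the 117 ubiquitin system genes, 24 were higher and 24 lower after 2 h with H2O2, 33 and 41 after 7 h with H2O2, 34 and 26 after 2 h with KCl and 56 and 28 after 7 h with KCl. Their medians were -0.019, -0.038, 0.027 and 0.12, beside medians of all genes of -0.00095, 0.075, 0.0 and 0.039. Over all genes 27.3% were called higher and 26.5% lower after 2 h with H2O2, 39.4% and 31.1% after 7 h, 27.2% and 27.0% after 2 h with KCl, and 37.2% and 31.6% after 7 h. Only 3 of the 117 lay below Ubb after 2 h with KCl and 8 after 7 h. Zfand2a rose by 1.78 after 2 h with H2O2 (SE 0.071) and 1.86 after 7 h (SE 0.072). The conjugating enzyme Ube2c, which acts in mitosis, fell by 0.59 after 2 h (SE 0.07) and fell by 1.69 after 7 h with H2O2 (SE 0.074). Usp5, a deubiquitinase that takes apart free ubiquitin chains, fell by 0.43 (SE 0.058) and fell by 0.87 (SE 0.059) at those times. After 2 h with KCl Zfand5 rose by 1.20 (SE 0.066) and Otub2 fell by 1.25 (SE 0.14). After 7 h with KCl the deubiquitinase Yod1 rose by 1.84 (SE 0.13) and Isg15, an interferon-induced ubiquitin-like modifier, fell by 1.99 (SE 0.2).

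**Figure D2:**
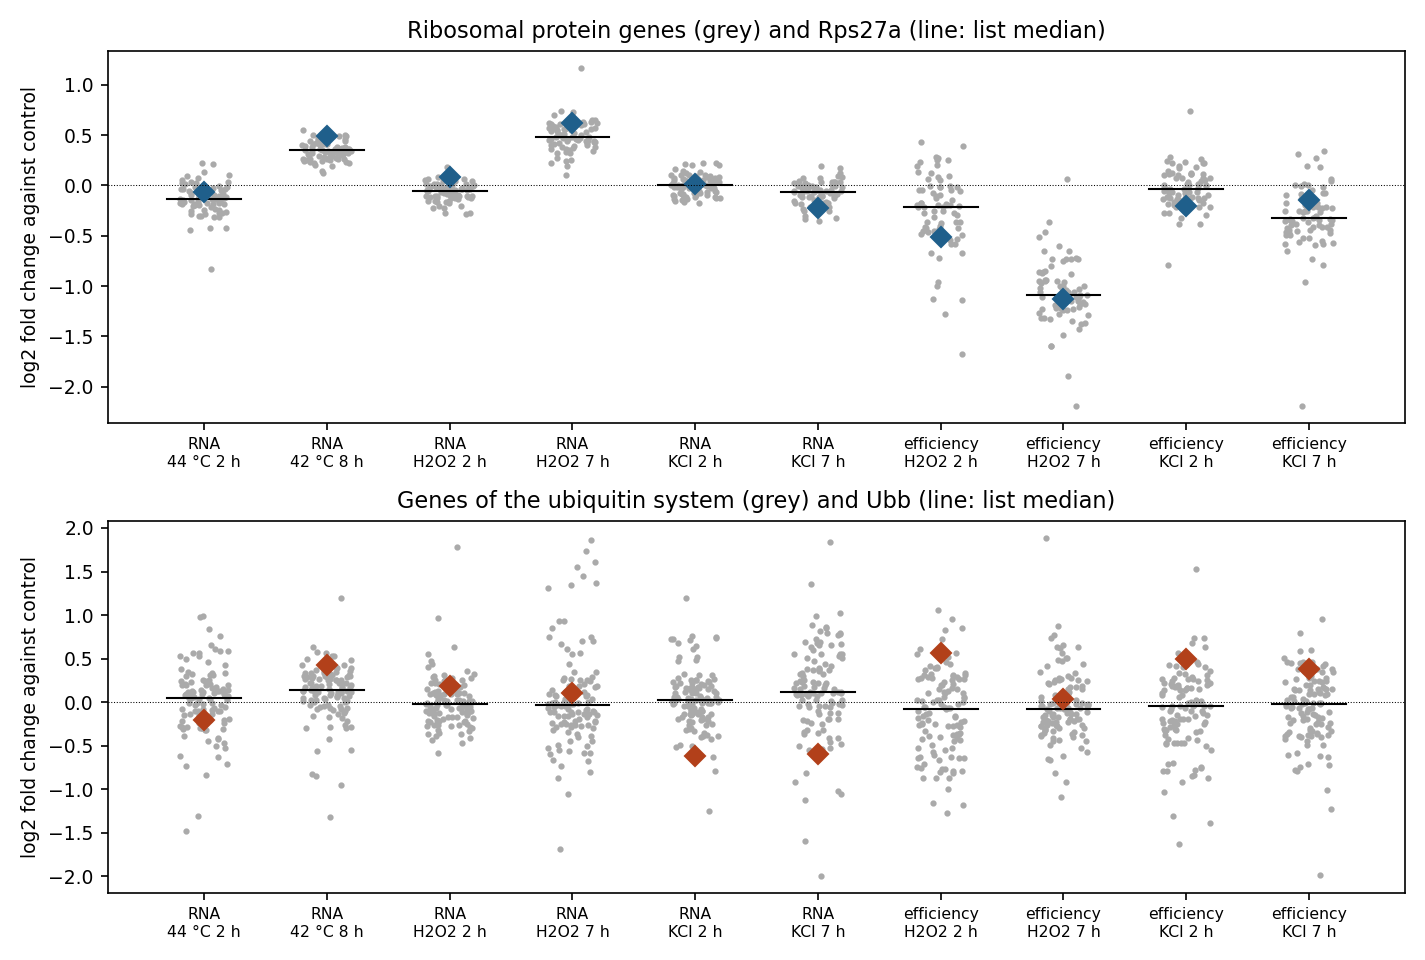
log2 fold change against control (y axis) of each ribosomal protein gene with Rps27a as a diamond (top), and of each gene of the ubiquitin system with Ubb as a diamond (bottom), for RNA and translational efficiency by stress and time; lines are list medians. Rps27a lies near the upper end of its list at 42 °C and near the list's median of -1.09 for efficiency after 7 h with H2O2, and Ubb lies near the lower end of its list for RNA in KCl.

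The third comparison asked whether ribosome footprints followed the RNA. Ubb footprints were 1500 and 1379 TPM in the controls, 2480 and 2254 after 2 h and 1773 and 1668 after 7 h with H2O2. They were 1321 and 1245 TPM after 2 h and 1216 and 1180 after 7 h with KCl. The 5 groups did not overlap, and the 2 h H2O2 group was the highest. Even so, the difference from control missed the threshold in edgeR after 7 h with H2O2 and at both times with KCl. Rps27a footprints were 1715 and 1330 TPM in the controls, 864 and 1324 after 2 h and 1294 and 1028 after 7 h with H2O2. They were 1258 and 1321 TPM after 2 h and 1113 and 1140 after 7 h with KCl. In TPM the controls lay above every stressed library, but the closest were only 1330 against 1324. The 4 stressed groups overlapped with their neighbours in order of mean TPM. In TMM-scaled CPM the controls overlapped both 2 h groups. Control replicate 2 stood at 558 there, against 569 and 580 in replicate 2 of 2 h with H2O2 and with KCl. The 7 h libraries lay below both controls on that scale too. Rps27a rested on 554 to 2934 footprint reads a library and Ubb on 2943 to 10825.

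**Figure D3:**
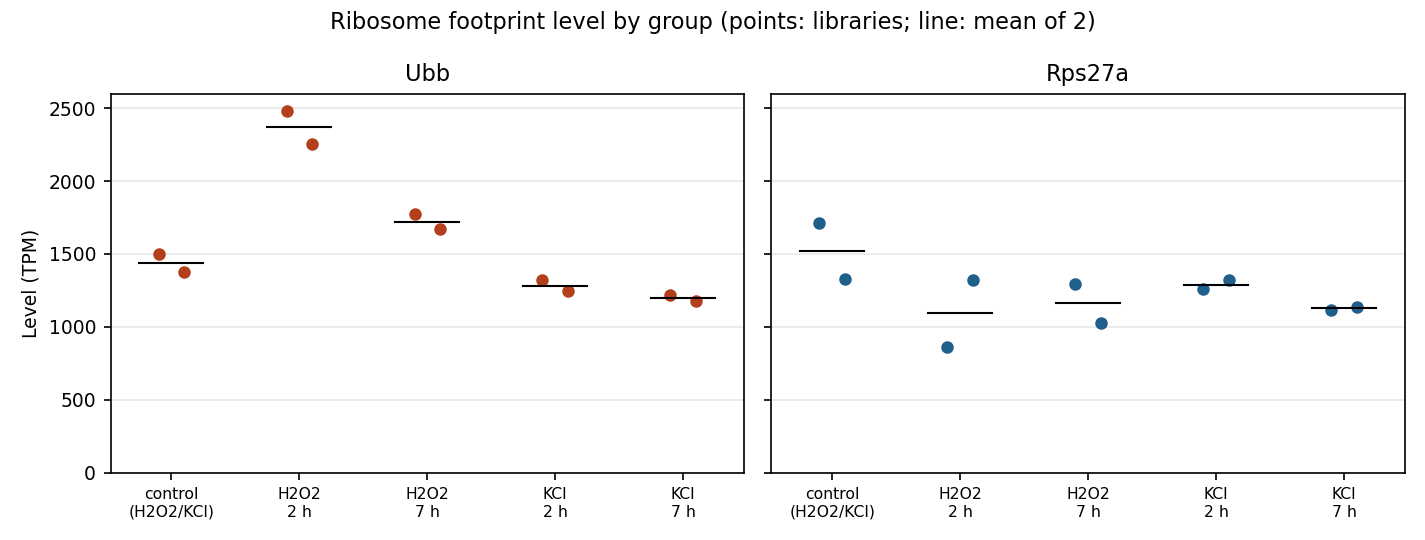
Footprint level (TPM) of Ubb and Rps27a in each of 10 libraries, by group, with the group mean as a line. Ubb stands at 2254 and 2480 TPM after 2 h with H2O2, above every other library, and the 2 Rps27a libraries of that group are apart at 864 and 1324 TPM.

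Ubb footprints rose by 0.78 on the log2 scale after 2 h with H2O2 (SE 0.16, adjusted p = 0.0277, edgeR), a 1.72-fold level, in a comparison that called 1.91% of 10545 genes. The call was lost without replicate 1 of 2 h with H2O2 (0.72, adjusted p = 0.0906), without control replicate 1 (0.80, adjusted p = 0.148) and without control replicate 2 (0.75, adjusted p = 0.181). It was also lost with only the 2 groups in the fit (adjusted p = 0.193) and with limma on log2(TPM + 1) (adjusted p = 0.092), while the value stayed between 0.72 and 0.84 over 10 alternatives. From 2 h to 7 h with H2O2 Ubb footprints fell by 0.64 (SE 0.16, adjusted p = 0.0103, 29.8% of genes called), and the fall missed the threshold without replicate 1 of 7 h (-0.67, adjusted p = 0.0535) and with limma on log2(TPM + 1) (-0.46, adjusted p = 0.0695), a scale on which the median of all genes was 0.19. H2O2 was above KCl after 2 h by 0.90 (SE 0.16, adjusted p = 0.00919, 5.12% called), which missed the threshold without either 2 h KCl replicate (adjusted p = 0.0765 and 0.0786) and with only these groups fitted (0.0826).

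The other differences of Ubb footprints from control were 0.14 after 7 h with H2O2 (adjusted p = 0.558), -0.12 after 2 h with KCl (adjusted p = 0.768) and -0.23 after 7 h with KCl (adjusted p = 0.336), each with an SE of 0.16. Those comparisons called 27.7%, 6.86% and 20.4% of genes. Rps27a footprints differed from control by -0.40 and -0.51 after 2 h and 7 h with H2O2 (adjusted p = 0.369 and 0.0983) and by -0.18 and -0.40 after 2 h and 7 h with KCl (adjusted p = 0.712 and 0.205), each with an SE of 0.22. None of the 4 passed the threshold. The 2 h H2O2 value of Rps27a was -0.13 without replicate 1 of that group, -0.76 without its replicate 2 and -0.25 without control replicate 1. Ubb footprints differed by 0.37 between H2O2 and KCl after 7 h (adjusted p = 0.0837, 41.2% called, and 0.52 with adjusted p = 0.0343 by limma on log2(TPM + 1)) and by -0.12 between 7 h and 2 h with KCl (adjusted p = 0.656, 20.6% called). Of the other ribosomal protein genes, 33 of 77 were lower and 1 was higher after 7 h with H2O2 (median -0.61, beside 10.6% of all genes lower and 17.2% higher), and Rps27l was the 1 that rose (1.23, SE 0.22).

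Translational efficiency compares the footprints of a gene with its RNA, and was tested as an interaction in 1 fit over 20 libraries and 10480 genes. For Rps27a it fell by 1.13 after 7 h with H2O2 (SE 0.23, adjusted p = 0.00535, edgeR), to 0.458 of the control ratio, where 9.27% of genes were called, 4.57% lower and 4.69% higher. That fall passed under all 13 alternatives run, with values of -1.26 to -0.97. Of the 77 other ribosomal protein genes 61 were lower and 0 higher in efficiency in that group (median -1.09), beside a median of 0.057 over all genes. Rps27, a small-subunit gene distinct from Rps27a, had the lowest value at -2.19 (SE 0.44). For Rps27a the other differences in efficiency were -0.51 after 2 h with H2O2 (SE 0.23, adjusted p = 0.151), -0.20 after 2 h with KCl (adjusted p = 0.614) and -0.14 after 7 h with KCl (adjusted p = 0.785). Without the footprint library of 2 h with H2O2, replicate 2, the first of these was -0.88 (adjusted p = 0.00624).

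Ubb efficiency rose by 0.56 after 2 h with H2O2 (SE 0.17, adjusted p = 0.0456), where 11.4% of genes were called, 3.98% higher and 7.46% lower. The call was kept in 5 of 13 alternatives, with adjusted p between 0.00426 and 0.182. Leaving out any of the 4 RNA libraries of the 2 groups gave adjusted p of 0.0695 to 0.182, and leaving out replicate 1 of the 2 h H2O2 footprints or either control footprint library gave 0.108, 0.0772 and 0.0989; voom gave 0.0837. In KCl Ubb efficiency differed by 0.49 after 2 h (SE 0.17, adjusted p = 0.0732, 12.8% called) and by 0.39 after 7 h (SE 0.17, adjusted p = 0.21, 5.57% called), and after 7 h with H2O2 by 0.036 (adjusted p = 0.93). The 2 h KCl difference passed with DESeq2 (0.53, adjusted p = 0.00931) and without replicate 1 of the 2 h KCl RNA (0.71, adjusted p = 0.0136). Of 116 ubiquitin system genes 1 was higher and 13 were lower after 2 h with H2O2. Sumo3, a ubiquitin-like modifier, was the 1 that rose (0.95, SE 0.17), and the deubiquitinase Usp16 fell by 1.19 (SE 0.22).

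**Figure D4:**
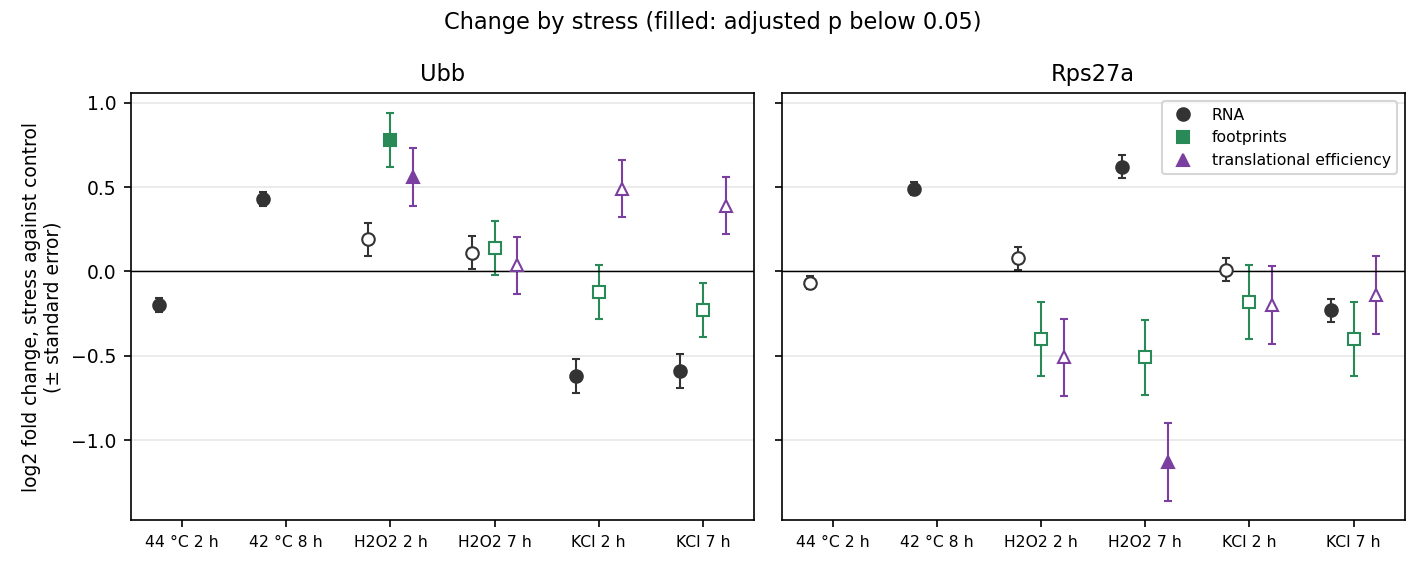
log2 fold change against control with its standard error for RNA, footprints and translational efficiency (y axis) of Ubb and Rps27a by stress and time (x axis), filled where the adjusted p was below 0.05. For Ubb RNA falls by 0.62 and 0.59 in KCl, and for Rps27a after 7 h with H2O2 RNA rises by 0.62 and efficiency falls by 1.13.

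The ratio of Ubb to Rps27a within a library contrasts the 2 genes without any scaling between libraries. In RNA it was 1.34 and 1.41 in the heat controls, 1.24 and 1.29 at 44 °C and 1.32 and 1.33 at 42 °C. An exact permutation test over the 3 groups gave p = 0.0667, the smallest that 6 libraries allow. In the other experiment the RNA ratio was 1.14 and 1.15 in the controls, 1.31 and 1.15 after 2 h with H2O2, 0.801 and 0.773 after 7 h with H2O2, 0.853 and 0.639 after 2 h with KCl and 0.812 and 0.989 after 7 h with KCl. Rps27a thus exceeded Ubb per length in all libraries of the last 3 groups. The ratio differed between the 5 groups (exact permutation test of the F statistic, p = 0.0307, 0.046 adjusted over 3 tests).

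In footprints the ratio was 0.875 and 1.04 in the controls, 2.87 and 1.70 after 2 h with H2O2, 1.37 and 1.62 after 7 h with H2O2, 1.05 and 0.942 after 2 h with KCl and 1.09 and 1.04 after 7 h with KCl. It differed between groups (exact permutation test, p = 0.00741, 0.0222 adjusted over 3 tests). The 4 H2O2 libraries held the highest footprint ratios, although the RNA ratios of 7 h with H2O2 were below those of the controls. Of the 10 fits that leave out 1 RNA library, 6 missed the threshold, with p up to 0.0815, namely those without either replicate of the control, of 2 h with H2O2 or of 7 h with H2O2. For footprints the exact test gave p = 0.054 without control replicate 1 and 0.0508 without replicate 2 of 2 h with KCl.

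**Figure D5:**
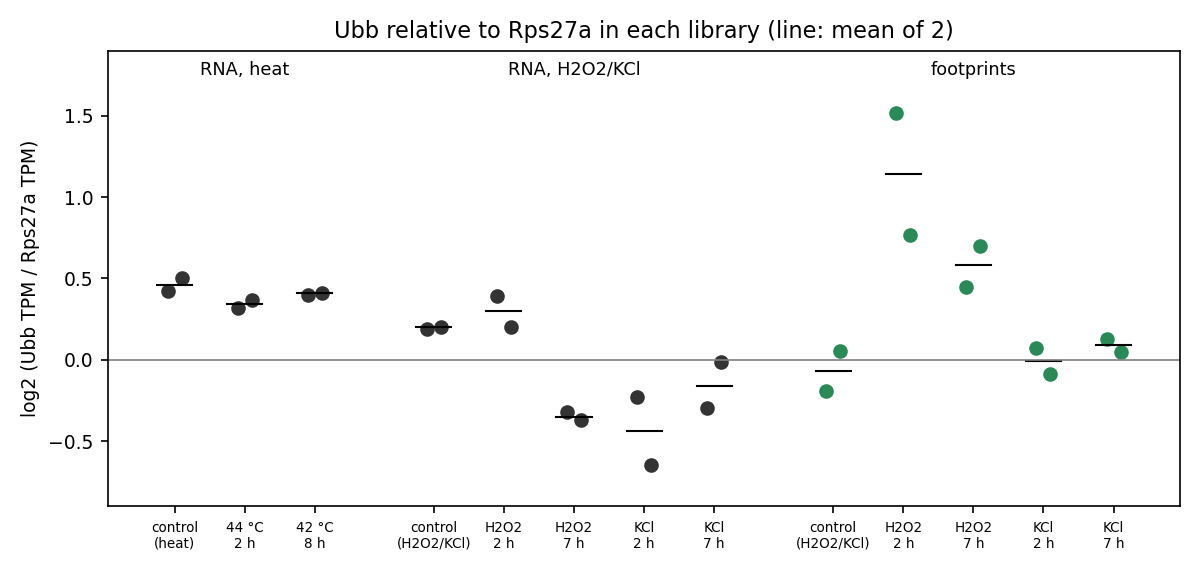
log2 ratio of Ubb TPM to Rps27a TPM (y axis) in each library by group, for RNA of the heat experiment, RNA of the H2O2 and KCl experiment, and footprints, with group means as lines. RNA means are -0.35 after 7 h with H2O2 and -0.44 after 2 h with KCl, and the footprint mean after 2 h with H2O2 is 1.14.

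The genes whose RNA pattern was most like that of Ubb, by Pearson's r of log2 CPM relative to the control of the same experiment over 16 libraries and among 9240 genes, were Myo19 (0.98), Abhd11 (0.967), Smyd5 (0.949), Trmt61a (0.948) and Rtel1 (0.944). All 5 had lower means in KCl at both times and a higher mean at 42 °C, and Myo19, a mitochondrial myosin, had -0.64 and -0.62 in KCl and 0.46 at 42 °C. The 5 genes were picked for likeness to Ubb in these same libraries, so the shared directions follow from that choice. Those most like Rps27a were Rps13 (0.985), Btf3 (0.976), Mpp6 (0.976), Noc2l (0.975) and Rpl36al (0.971). Of these Rps13 and Rpl36al code for ribosomal proteins and Btf3 for a factor that binds nascent chains at the ribosome. Ubb and Rps27a correlated with each other at r = 0.652, which put Rps27a at place 521 for Ubb. These values share the libraries and their scaling and are a description.

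The authors' tables of transcription past gene ends name a member in 3 pairs of neighbouring genes. A DoG is transcription that runs on downstream of a gene, and read-in is such transcription that reaches the next gene. Across 16 RNA libraries the deposited DoG call was set for Pigl, upstream of Ubb, in 15, for Ubb, upstream of Trpv2, in 6, and for Rps27a, upstream of Prorsd1, in 9. Over all 6399 pairs 28.5% of the calls were set. No read-in was called in any library for the 3 pairs, where 1.38% of all calls were set. The authors' read-in estimate from Pigl into Ubb, a ratio deposited without a formula, was between 4.34e-05 and 0.000187 in the 4 control libraries. It was 0.00132 and 0.00161 after 7 h with KCl, 0.000866 and 0.00136 at 44 °C and 0.00124 and 0.00117 after 2 h with H2O2, and 0.00161 was the highest of the 16. The estimate was 0.000773 and 0.000719 after 2 h with KCl and 0.000335 and 0.000808 at 42 °C, also above the controls. After 7 h with H2O2 it was 0.000158 and 0.000288, which overlapped the controls. The levels of both genes moved too. After 7 h with KCl Pigl stood at 20.87 and 19.9 TPM, against 13.03 and 13.87 in the controls, while Ubb was lower. What moved the ratio was not tested.

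For Ubb into Trpv2, an ion channel gene, the estimate was 0.914 and 1.0 at 42 °C and 0.163 in replicate 1 of 2 h with KCl, and it was listed at 0 in the other 13 libraries. Trpv2 itself stood at 0.99 and 1.01 TPM at 42 °C and at 1.65 and 1.28 TPM in the heat controls. For Rps27a into Prorsd1 the estimate was 0.0198 in replicate 2 of 7 h with H2O2 and listed at 0 in the other 15. Genes that code for ubiquitin share near-identical sequence, and the annotation names 1 pseudogene after Ubb and 3 after Rps27a. How the authors' counting divided shared reads among them was not tested, so levels of both genes carry that uncertainty.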

How the data were processed

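Expected counts, deposited by the authors for each gene, are RSEM's estimates made by dividing ambiguous reads among transcripts; the submitters' processing notes name STAR, RSEM, Bowtie and the build mm10, without versions. All deposited expected counts were whole numbers. The authors also deposited TPM values for the same libraries, and a read-in ratio with true or false calls for 6399 pairs of neighbouring genes. No filter on footprint length is stated in the labels. A further 12 columns have names outside the labelled samples and were left out.

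Expected counts were tested with edgeR 4.0.16 (R 4.3.3; quasi-likelihood F test, TMM, filterByExpr), with Benjamini-Hochberg adjustment over all genes at 0.05. Heat RNA, H2O2 and KCl RNA, and footprints were fitted apart, with 12747, 13256 and 10545 genes tested. Efficiency was tested as an interaction over 10480 genes, with normalization factors within each kind of library. The ratio of both genes was tested by exact permutation in numpy 2.4.6. Alternatives were DESeq2 1.42.0, limma 3.58.1 on log2(TPM + 1), DESeq2's size factors in edgeR, no filter, a replicate block, only the compared groups, and each library left out; voom replaced the TPM fit for efficiency. The fits were run on simulated data with planted changes larger than most of those reported for Ubb and Rps27a, and false calls were not counted. Replicate numbers were not taken as pairs, since in no experiment did every pair of groups correlate above 0.1.

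Of each gene list the called genes with the highest and lowest change were eligible to be named, and the most similar genes were the 5 highest by r among those whose average log2 CPM reached 3. The members and the lists were chosen with earlier results of these data known. Some genes that the naming rule also held are not reported here. Sequences and positions are from RefSeq, GRCm38.p6.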

Additional observations from a re-analysis of the deposited data

Results flagged for a closer look

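The 2 heat treatments differed for both genes. RNA at 42 °C for 8 h was above that at 44 °C for 2 h by 0.63 for Ubb and 0.56 for Rps27a on the log2 scale, in a direct edgeR contrast. Rps27a RNA was 0.54 higher after 7 h than after 2 h with H2O2. Rps27a RNA after 7 h with KCl differed by -0.24 from that after 2 h. Ubb footprints after 7 h with H2O2 differed by -0.64 from those after 2 h. Each is a tested difference between 2 durations of a stress, or between 2 heat treatments, and the adjusted p-values stand in the report. The Rps27a difference in KCl and the Ubb footprint difference missed the threshold under some alternatives, also given there.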

How the results depend on the processing

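Of 552 alternative values for the tests and the main gene list, 487 stayed on the same side and in the same direction; the other values follow, and where no construction is named the cause was not tested. On log2(TPM + 1) with limma, Ubb RNA after 7 h with H2O2 was -0.00087, Rps27a RNA after 2 h with KCl -0.10 (-0.0071 without the low-count filter) and Rps27a RNA in H2O2 against KCl after 2 h 0.18. There Rps27a footprints were 0.11 for 7 h against 2 h with H2O2 and 0.034 for H2O2 against KCl after 7 h. Ubb footprints were 0.72 after 2 h with H2O2, -0.46 for 7 h against 2 h and 0.52 for H2O2 against KCl after 7 h. With only the compared groups, which leaves fewer libraries to estimate the spread, Ubb was 0.19 for RNA and 0.79 for footprints after 2 h with H2O2, and 0.89 for footprints in H2O2 against KCl after 2 h. Ubb efficiency was 0.56 after 2 h with H2O2 with voom and 0.53 after 2 h with KCl with DESeq2.

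With 1 library left out, which leaves an arm with 1 library assumed to vary like the rest, Rps27a RNA ranged from -0.021 to 0.039 after 2 h with KCl, from -0.34 to -0.13 after 7 h and from -0.35 to -0.14 between them, and Ubb RNA from -0.16 to 0.24 between them. Ubb footprints ranged from 0.72 to 0.84 after 2 h with H2O2, from -0.70 to -0.58 for 7 h against 2 h, and from 0.83 to 0.96 for H2O2 against KCl after 2 h. Rps27a footprints ranged from -0.32 to 0.021 after 2 h with KCl, from -0.38 to 0.25 for 7 h against 2 h with H2O2 and from -0.58 to 0.053 for H2O2 against KCl after 2 h. Efficiency of Ubb ranged from 0.48 to 0.63 after 2 h with H2O2 and from 0.31 to 0.71 after 2 h with KCl, and that of Rps27a from -0.88 to -0.25 after 2 h with H2O2 and from -0.28 to 0.015 after 7 h with KCl. The exact p of the ratio of both genes ranged from 0.00847 to 0.0815 for H2O2 and KCl RNA and from 0.00741 to 0.054 for footprints.

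With a minimum absolute log2 change of 1, which calls fewer genes by construction, the higher and lower ubiquitin system genes were 0 and 2 at 44 °C (6.09% and 4.88% of all genes), 1 and 1 at 42 °C (2.82% and 5.10%), 1 and 0 after 2 h with H2O2 (1456 and 307 of 13256 genes), 8 and 2 after 7 h (16.4% and 6.93%), 1 and 1 after 2 h with KCl (7.17% and 5.56%) and 3 and 5 after 7 h (10.7% and 7.78%). On log2(TPM + 1) limma called 26 higher and 39 lower at 42 °C (15.3% and 49.3% of all genes) and 21 higher and 38 lower after 2 h with KCl (19.4% and 34.2%).

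Deviations of same-numbered replicates correlated at -0.0247 to 0.117 in heat RNA and -0.0531 to 0.0537 in the other RNA. In footprints r was 0.198 to 0.417 in the 6 pairs of groups without 2 h H2O2 and -0.384 to -0.0459 in the 4 pairs with it, so the numbers were not taken as pairs. A replicate block left 48 of 49 results as they were, and moved the exact p of the RNA ratio in H2O2 and KCl to 0.0833.

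Rps27a had an SE of 0.22 in footprints and 0.068 in RNA of the same experiment; the cause of that gap, depth included, was not tested.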
